A study of Homo sapiens with 15 samples.

Results

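The extracellular matrix genes described here are the collagen chains, the laminin chains, and fibronectin (FN1), SPARC, tenascin C (TNC), thrombospondin 1 (THBS1), the nidogens (NID1, NID2), perlecan (HSPG2) and agrin (AGRN). By their names 61 genes were chosen out of 19845 in the tables, namely 42 collagens, 11 laminin chains and 8 others. Of these, 33 had a normalized count of at least 1 in at least 3 of 14 libraries, with the library Lat 3 not counted, and are reported: 18 collagens, 8 laminin chains and 7 others. Counting Lat 3 would have added COL6A2 and made 34. Just inside the limit, NID1 reached a value of 1 in 3 libraries and COL4A4 in 4. Just outside it, COL6A2, COL9A2, COL24A1 and COL2A1 reached it in 2.

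The 15 RNA-seq libraries come from HCC1954 cells, a line grown from a human breast carcinoma with amplified HER2. M-BM (4 libraries) are metachronous metastatic cells, Lat (4) are latent or residual cells and S-BM (4) are synchronous metastatic cells, all 3 described as brain-tropic, and Pa (3) is the parental line. The labels give no genetic change or drug for any group. All cells, Pa included, had been kept in the medium R3F and plated in it overnight before RNA extraction, so every value is that of cultured tumour cells and none was measured in brain tissue. All groups descend from a single line, and no label says that the replicates of a group were separate animals or cultures, so the p-values reflect the spread among these libraries alone, part of which may be technical.

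Around epithelia the extracellular matrix takes the form of basement membranes and of interstitial matrix. Basement membranes are thin sheets of type IV collagen and laminin networks, held together by nidogen and by the heparan sulfate proteoglycans perlecan and agrin. The interstitial matrix is built of fibrillar collagens, with fibronectin, tenascins and thrombospondins added where tissue is remodelled or wounded. In brain, basement membrane lies mainly around vessels, and tumour cells that reach the brain meet it there. Each laminin is a trimer of an α, a β and a γ chain, and each collagen a trimer of α chains, so a protein can be assembled only where the genes of all its chains are transcribed.

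Reads recovered from the deposited values numbered 20552225 to 21843673 in the M-BM libraries, 14152711 to 19498461 in Lat, 13253712 to 20048546 in S-BM and 15511203 to 18656042 in Pa. The floor of 3 reads lay at a value of 0.136 to 0.225 and covers counting error only. Pairs of libraries were compared by the median chi-square per gene, a squared measure, divided by its expectation under read sampling. Lat 3 stood apart from the other Lat libraries by this ratio. It was 13.11 to 14.48 there, against 2.41 to 5.87 among the other Lat pairs, of which Lat 1 and Lat 2 were the closest. The ratio was 6.49 to 14.4 for M-BM pairs and 10.13 to 19.88 for S-BM pairs other than S-BM 3 with S-BM 4. Ratios like those of Lat 3 were thus also found in other groups. S-BM 3 and S-BM 4 were the closest pair (ratio 2.08) and carried ERBB2, the gene of HER2, at 353 and 367, against 4109 and 4642 in S-BM 1 and S-BM 2. Results that depend on these libraries are given with and without them. Markers of breast epithelium were at 10 or more in every library of a group for 10 of 12 genes in M-BM, Lat and S-BM and for 11 in Pa. Of 14 fibroblast and mural cell markers found in the tables, 6 to 7 reached a value of 1 in any library of a group. At 10 or more in every library of the group were 2 in M-BM, 2 in Lat, 3 in S-BM and 4 in Pa. The summed level of the 14 was 57.8 to 109.65 in M-BM, 74.44 to 108.1 in Lat, 152.22 to 199.97 in S-BM and 122.6 to 135.4 in Pa. THY1 was at 0 in all 15 libraries, while FOXC1 stood at 16.6 to 87.4 and TAGLN at 8.42 to 95.7. The summed level of 9 endothelial markers was 5.01 to 12.7 in M-BM, 8.44 to 9.52 in Lat, 15.25 to 28.23 in S-BM and 20.97 to 28.73 in Pa. That of 5 astrocyte markers, nearly all SLC1A3, was 32.16 to 79.82 in M-BM, 36.81 to 49.24 in Lat, 172.83 to 325.21 in S-BM and 313.35 to 425.79 in Pa. Of 7 microglia and macrophage markers and 8 of neurons and oligodendrocytes, no more than 1 and 2 reached 10 in every library of a group. The part of these markers in the results was not tested, and in such bulk samples fewer cells of a type and less RNA per cell cannot be told apart.

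The first question is how the matrix genes of M-BM and of Lat cells differ from those of S-BM cells. Values are normalized counts as deposited, and fold changes are on the log2(value + 1) scale, which understates the change of genes at low values. Tests are two-sided limma tests over all genes, with Benjamini-Hochberg adjusted p-values and a threshold of 0.05. The test took in 19 of the 33 genes, those with a value of at least 10 in at least 4 of the 12 M-BM, Lat and S-BM libraries. SPARC and COL15A1 reached that filter through M-BM and Lat libraries alone, since no S-BM library held either gene at 10, so a difference between the groups was built into their selection. SPARC reached it through the 4 M-BM libraries and Lat 3, and COL15A1 through the 4 Lat libraries and M-BM 3, which bears on M-BM against Lat as well. Their tests are therefore given as descriptions that support nothing. A wider fit of 13019 genes, run after the values were seen, took in 13 more, and NID1 was in neither fit.

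In M-BM against S-BM, 16 of the 19 genes passed (84.2%), beside 52.7% of all 9646 genes tested. Rising were FN1, TNC, THBS1, SPARC, COL15A1, LAMA3, LAMB3 and LAMC1 (8 genes, beside 26.9% of all genes that rose). Falling were COL4A5, COL18A1, COL5A1, COL12A1, LAMA5, LAMB1, LAMB2 and AGRN (8 genes, beside 25.8%). At 2-fold or more, 7 rose and 5 fell, where 4.24% and 5.52% of all genes did. In Lat against S-BM, 17 of the 19 passed (89.5%), beside 59.7% of all genes. There 9 rose, namely FN1, TNC, THBS1, SPARC, COL15A1, COL17A1, LAMA3, LAMB3 and LAMC1, beside 30.2% of all genes. The 8 that fell were COL4A5, COL18A1, COL5A1, COL12A1, LAMA5, LAMB1, LAMB2 and AGRN, beside 29.4%. At 2-fold or more, 7 rose and 5 fell, where 5.75% and 7.66% of all genes did. Without SPARC and COL15A1, 14 of 17 genes passed in M-BM (6 rose, 8 fell) and 15 of 17 in Lat (7 rose, 8 fell), with 5 up and 5 down by 2-fold or more in each. The libraries did not overlap for 13 genes in M-BM against S-BM and for 16 in Lat against S-BM, beside 46.2% and 54.5% of all genes. Both comparisons use the same S-BM libraries. The median log2 fold change of the 19 genes was 0.07 in M-BM and 0.04 in Lat, beside 0.01 for all genes in each, as the genes divided between both directions; without SPARC and COL15A1 it was −0.36 in M-BM and −0.61 in Lat.

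**Figure D1:**
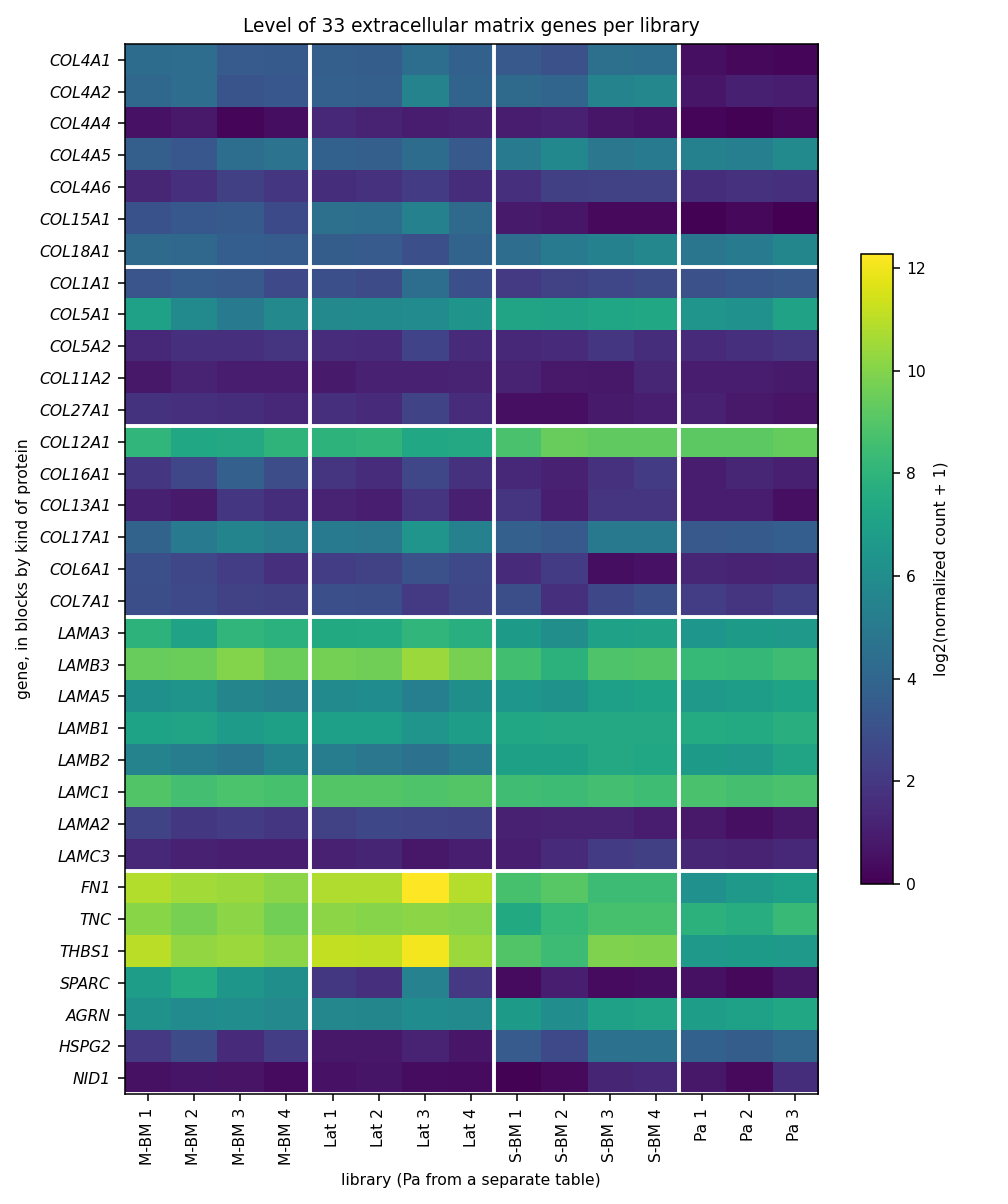
Level of the 33 reported genes (rows, in blocks for basement membrane collagens, fibrillar collagens, other collagens, laminin chains, and glycoproteins with proteoglycans) in each of the 15 libraries (columns, M-BM, Lat, S-BM and Pa), as log2(normalized count + 1) by colour. FN1, THBS1, TNC and LAMB3 are bright in M-BM and Lat, SPARC is brighter in M-BM and in Lat 3 than elsewhere, and COL4A1 and COL4A2 are dark in Pa alone.

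**Figure D2:**
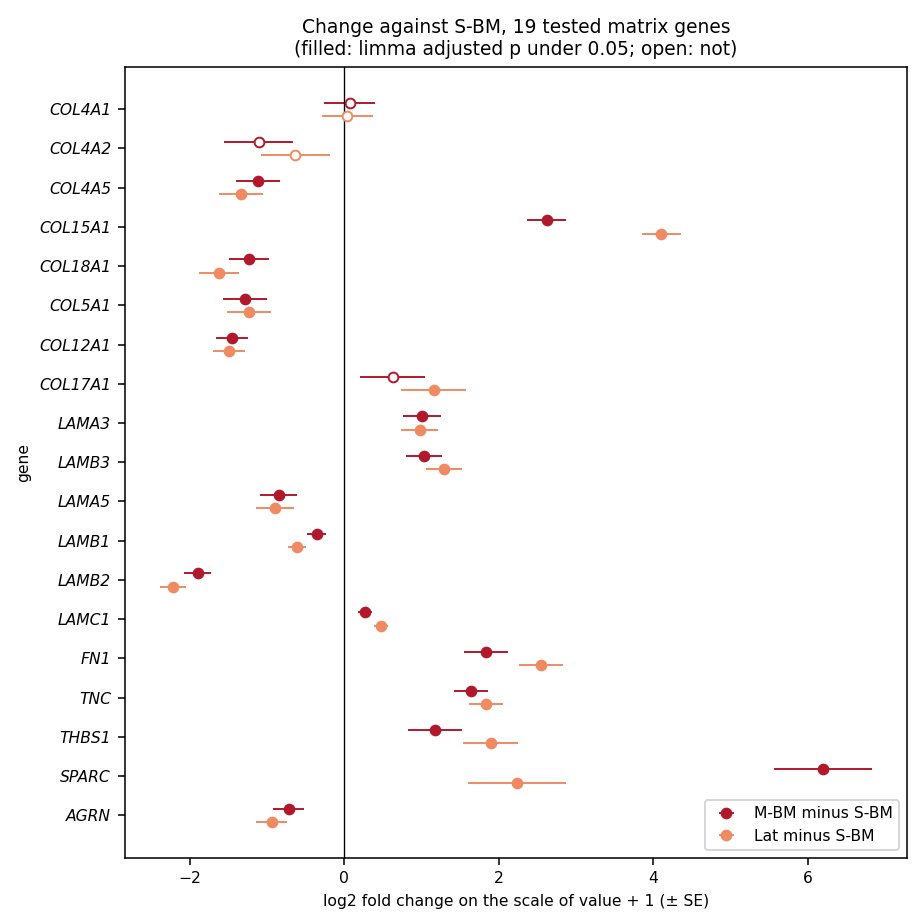
Log2 fold change on the log2(value + 1) scale (x axis) of the 19 tested genes (y axis) in M-BM minus S-BM (dark red) and Lat minus S-BM (orange), with bars of 1 SE; filled points passed the limma test and open points did not. SPARC lies farthest to the right in M-BM and COL15A1 in Lat, and LAMB2 farthest to the left in both.

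Fibronectin, tenascin C and thrombospondin 1 were, with LAMB3, the 4 of the 33 genes with the highest counts per length in M-BM and in Lat, and all rose in M-BM and in Lat. FN1, at chromosome 2, 215360865 to 215436068 on GRCh38, encodes the glycoprotein that integrins assemble into fibrils. It stood at 1834, 1546, 1379.9 and 1112 in M-BM 1 to 4, against 415, 546, 343 and 341 in S-BM 1 to 4. Every M-BM library lay above every S-BM library, and FN1 rose 3.57-fold in M-BM (log2 fold change 1.84, SE 0.28, adjusted p = 0.000135). In Lat 1 to 4 it stood at 1817, 1795, 4951 and 1940.1, so that Lat 3 was far above the other Lat libraries, which lay within a narrow range. The rise against S-BM was 5.85-fold (log2 fold change 2.55, SE 0.28, adjusted p = 5.74e-06), and the mean was 1850.4 ± 78.4 (SD, n = 3) in Lat without Lat 3, against 411 ± 96.1 in S-BM. Per kb of its longest coding transcript FN1 averaged 165 in M-BM, 295 in Lat, 46.2 in S-BM and 10.996 in Pa. Its promoter is shown because FN1 rose in M-BM and in Lat against S-BM. The FN1 window is also the only 1 with TGACGTCA among the 36 promoter windows listed for 28 of the reported genes. These letters, the cyclic AMP response element, are in capitals. The window runs from 250 bases before the RefSeq start to 50 after it, on GRCh38.p14 at chr2:215436019-215436318, minus strand, written 5′ to 3′.
FN1: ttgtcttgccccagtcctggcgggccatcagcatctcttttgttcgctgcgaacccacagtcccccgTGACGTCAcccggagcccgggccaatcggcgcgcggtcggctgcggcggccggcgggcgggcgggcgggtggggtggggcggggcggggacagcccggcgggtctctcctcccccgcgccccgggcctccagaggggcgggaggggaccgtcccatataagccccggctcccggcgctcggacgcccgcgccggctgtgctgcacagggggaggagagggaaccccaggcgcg
Of 35116 RefSeq promoter windows of the same length, 1.85% hold TGACGTCA, which reads the same on both strands; the match is a description of the sequence.

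THBS1, which encodes a trimeric glycoprotein that binds CD47 and can activate latent TGF-β, had values of 2049.7, 1253, 1357 and 1114 in M-BM and 2235, 2225, 4294 and 1355 in Lat. In S-BM it had 493, 345, 946 and 931, with S-BM 3 and S-BM 4 above the other pair but below every M-BM and Lat library. THBS1 rose 2.25-fold in M-BM (log2 fold change 1.17, SE 0.36, adjusted p = 0.0132) and 3.72-fold in Lat (1.90, SE 0.36, adjusted p = 0.000429). Without S-BM 3 and S-BM 4 these log2 fold changes were 1.77 and 2.49, and both passed. TNC encodes a six-armed glycoprotein of remodelled tissue. Its values were 1085, 858, 1111 and 801 in M-BM and 1132, 1066, 1110.1 and 1054 in Lat, against 173, 293, 410.4 and 416 in S-BM. The Lat libraries were tightly grouped (1091 ± 36.7, SD, n = 4), M-BM spread a little wider (964 ± 157), and neither overlapped S-BM (323 ± 115). The rise was 3.12-fold in M-BM (log2 fold change 1.64, SE 0.22, adjusted p = 4.71e-05) and 3.56-fold in Lat (1.83, SE 0.22, adjusted p = 1.08e-05).

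SPARC, a collagen-binding glycoprotein that is secreted in remodelled matrix, had the largest log2 fold change of the tested genes in M-BM against S-BM. Because SPARC reached the filter only through M-BM and Lat 3, its separation was built into its selection. The tests of SPARC given here are descriptions that support nothing. It stood at 113, 186, 89.0 and 67.2 in M-BM 1 to 4 and at 3.03, 2.22, 41.9 and 3.07 in Lat 1 to 4. In S-BM 1 to 4 it was at 0.285, 1.06, 0.300 and 0.349, a level carried by 36 reads in all S-BM libraries together, against 9669 in M-BM. All M-BM libraries were above all others, Lat 3 was alone between the groups, and the remaining Lat libraries were low but above every S-BM library. SPARC rose in M-BM against S-BM (log2 fold change 6.19, SE 0.63, adjusted p = 6.75e-06), and edgeR on the recovered reads put the size of that rise at 213-fold. Against Lat it rose 15.5-fold (log2 fold change 3.96, SE 0.63, adjusted p = 0.027), but edgeR did not call it (3.15, adjusted p = 0.181). Without Lat 3 the log2 fold change over Lat was 4.84 (limma adjusted p = 2.66e-06). Lat against S-BM gave a log2 fold change of 2.23 (SE 0.63, adjusted p = 0.0078), which was 1.35 without Lat 3 (adjusted p = 0.00167). SPARC lies at chromosome 5, 151661096 to 151686915. Its promoter (chr5:151686866-151687165, minus strand) is shown as that of the gene with the largest change, and capitals mark the purine run GGAGGAGG, found 3 times counting both strands, with a pair of overlapping matches.
SPARC: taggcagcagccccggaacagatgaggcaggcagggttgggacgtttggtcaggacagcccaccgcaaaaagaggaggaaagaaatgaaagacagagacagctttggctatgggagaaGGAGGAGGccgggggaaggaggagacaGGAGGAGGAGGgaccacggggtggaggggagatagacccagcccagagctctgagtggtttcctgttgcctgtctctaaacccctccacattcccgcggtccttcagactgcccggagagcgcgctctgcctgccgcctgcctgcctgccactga
GGAGGAGG occurs in 10.9% of all promoter windows and in 6 of the 36 windows of the reported genes.

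**Figure D3:**
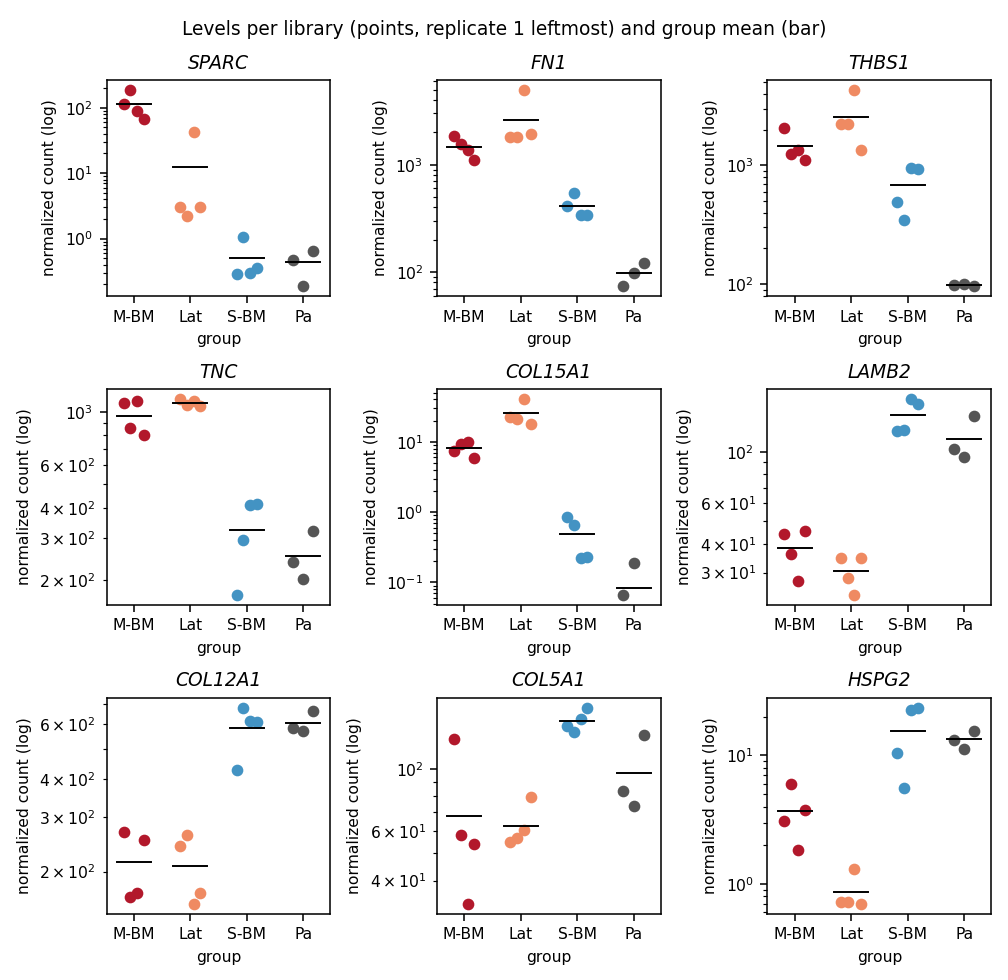
Normalized count on a log axis (y axis) of 9 genes in M-BM, Lat, S-BM and Pa (x axis), with 1 point per library, replicate 1 leftmost, and a bar at the group mean; Pa 3, at 0 for COL15A1, cannot be drawn on the log axis. FN1, THBS1, TNC, COL15A1 and SPARC are higher and LAMB2, COL12A1 and COL5A1 lower in every M-BM and Lat library than in every S-BM library, and the Lat 3 point stands above the other Lat points for SPARC and FN1.

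The type IV collagens of basement membranes did not move as a block. COL4A1 and COL4A2 encode the chains of the α1α1α2 trimer found in nearly all basement membranes, and they sit head to head on chromosome 13 (110148963 to 110307157 and 110307284 to 110513209). Only 126 bases separate their first transcript bases, so that 226 of the 300 bases of each promoter window are shared; these are in capitals. The windows are chr13:110307108-110307407 on the minus strand for COL4A1 and chr13:110307034-110307333 on the plus strand for COL4A2.
COL4A1: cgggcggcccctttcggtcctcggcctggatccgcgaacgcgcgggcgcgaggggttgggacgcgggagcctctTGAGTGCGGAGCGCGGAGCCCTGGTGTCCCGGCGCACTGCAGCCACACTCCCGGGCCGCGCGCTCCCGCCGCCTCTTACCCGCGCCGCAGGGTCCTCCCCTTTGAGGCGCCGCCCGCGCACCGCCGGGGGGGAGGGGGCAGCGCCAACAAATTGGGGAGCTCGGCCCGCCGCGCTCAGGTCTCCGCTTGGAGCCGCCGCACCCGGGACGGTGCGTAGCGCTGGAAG
COL4A2: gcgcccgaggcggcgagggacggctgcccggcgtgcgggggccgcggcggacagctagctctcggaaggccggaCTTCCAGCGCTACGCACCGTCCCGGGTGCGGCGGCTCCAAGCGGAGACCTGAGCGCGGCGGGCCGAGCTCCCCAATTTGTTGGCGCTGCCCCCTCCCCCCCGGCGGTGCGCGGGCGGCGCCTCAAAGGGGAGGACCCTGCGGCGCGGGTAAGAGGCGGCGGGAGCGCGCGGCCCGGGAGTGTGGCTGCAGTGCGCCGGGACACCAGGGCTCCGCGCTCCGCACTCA
COL4A1 was at 19.2, 19.8, 10.3 and 10.1 in M-BM, at 11.97, 11.46, 20.5 and 13.0 in Lat and at 9.80, 7.29, 21.7 and 20.4 in S-BM. The groups overlapped fully, and neither M-BM (log2 fold change 0.07, SE 0.33, adjusted p = 0.875) nor Lat (0.04, SE 0.33, adjusted p = 0.922) differed from S-BM by the test. COL4A2 was at 16.3, 19.8, 8.08 and 9.23 in M-BM, at 12.5, 12.2, 43.5 and 14.6 in Lat and at 17.9, 15.1, 44.2 and 51.1 in S-BM. Here Lat 3, S-BM 3 and S-BM 4 were high and all other libraries lower. The log2 fold change of COL4A2 was −1.11 in M-BM (SE 0.45, adjusted p = 0.0505) and −0.63 in Lat (SE 0.45, adjusted p = 0.237). The M-BM value passed with edgeR (adjusted p = 0.0443) and DESeq2 (0.0459), with only the 2 groups in the fit (0.0429), and without M-BM 2 (0.0368), Lat 3 (0.0219), S-BM 1 (0.0373) or S-BM 2 (0.0211). Both values rest on those libraries: without S-BM 3 and S-BM 4 they were −0.37 (adjusted p = 0.531) and 0.11 (adjusted p = 0.86), and without Lat 3 the Lat value was −1.05 (adjusted p = 0.0379). Per kb of transcript the 2 chains averaged 2.24 ± 0.808 (COL4A1) and 2.06 ± 0.866 (COL4A2) in M-BM, against 2.24 ± 1.11 and 4.94 ± 2.81 in S-BM (SD, n = 4).

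COL4A5, whose chain forms trimers with those of COL4A6 or of COL4A3 and COL4A4, was at 11.96, 9.08, 21.0 and 24.4 in M-BM and at 13.1, 12.02, 19.5 and 9.76 in Lat, against 31.5, 51.2, 28.3 and 31.8 in S-BM. All M-BM and Lat libraries lay below all S-BM libraries. COL4A5 fell 2.17-fold in M-BM (log2 fold change −1.12, SE 0.28, adjusted p = 0.0048) and 2.52-fold in Lat (−1.33, SE 0.28, adjusted p = 0.00116). Its partner COL4A6, which begins next to it on the X chromosome, stood at 1.48 to 3.99 in M-BM, 2.003 to 3.47 in Lat and 2.28 to 4.20 in S-BM, and passed in neither comparison. COL4A4 stood at 0.146 to 0.813 in M-BM, 0.984 to 1.54 in Lat and 0.524 to 1.21 in S-BM. COL4A3 was close to nothing, at most 0.116 in any library.

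Collagens XV and XVIII, related proteoglycan collagens that tie basement membranes to the tissue below and release anti-angiogenic fragments, stood on opposite sides of their S-BM levels. For COL15A1 a difference was built into its selection by the filter, so its tests given here are descriptions that support nothing. COL15A1 (chromosome 9, 98943907 to 99070787) stood at 7.43, 9.31, 10.02 and 5.85 in M-BM and at 22.2, 21.0, 40.6 and 18.1 in Lat, against 0.855, 0.658, 0.225 and 0.233 in S-BM. The 3 groups did not overlap, with Lat on top, M-BM between and S-BM at the level of a few reads, 35 over its 4 libraries. COL15A1 rose 6.13-fold in M-BM (log2 fold change 2.62, SE 0.25, adjusted p = 5.11e-06) and 17.2-fold in Lat (4.10, SE 0.25, adjusted p = 1.08e-07); edgeR on reads gave 15.7-fold and 49.5-fold. COL18A1 stood at 17.8, 16.8, 11.8 and 10.99 in M-BM and at 11.2, 10.4, 7.04 and 14.2 in Lat, against 20.2, 33.0, 40.9 and 50.2 in S-BM. Again no library of M-BM or Lat reached the lowest S-BM library, here from below. COL18A1 fell 2.34-fold in M-BM (log2 fold change −1.23, SE 0.26, adjusted p = 0.00137) and 3.09-fold in Lat (−1.63, SE 0.26, adjusted p = 0.000116).

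Among laminins, LAMA3 and LAMB3 encode the α and β chains of the laminin that anchors epithelial cells through the integrin α6β4 of hemidesmosomes. LAMB3 was at 674, 742, 1007 and 726 in M-BM and at 832, 777, 1356 and 858 in Lat, against 381, 235, 472 and 494 in S-BM. All M-BM and Lat libraries were above all S-BM libraries, with Lat 3 the highest. LAMB3 rose 2.04-fold in M-BM (log2 fold change 1.03, SE 0.23, adjusted p = 0.0019) and 2.45-fold in Lat (1.29, SE 0.23, adjusted p = 0.000268). LAMA3 was at 247, 132, 267 and 225 in M-BM and at 175, 179, 268 and 212 in Lat, against 103, 65.4, 131 and 133 in S-BM. M-BM 2 lay level with the highest S-BM libraries and the rest of M-BM and Lat above them. LAMA3 rose 2.01-fold in M-BM (log2 fold change 1.01, SE 0.24, adjusted p = 0.00356) and 1.96-fold in Lat (0.97, SE 0.24, adjusted p = 0.00359). Per kb, LAMB3 was well above LAMA3, with means of 183 for LAMB3 and 20.4 for LAMA3 in M-BM and of 91.9 and 10.1 in S-BM.

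The promoters of LAMA3 and LAMB3 are shown because these partner chains rose in both comparisons and hold TGACTCA, the letters bound by AP-1 factors of the FOS and JUN families. The windows shown are the 2 with TGACTCA among the 36 promoter windows listed for 28 of the reported genes. The letters are in capitals on whichever strand they occur. The LAMA3 window (chr18:23872770-23873069, plus strand) lies within the gene, which begins at 23689453. The LAMB3 window (chr1:209651325-209651624, minus strand) is 1 of 3 listed for that gene.
LAMA3: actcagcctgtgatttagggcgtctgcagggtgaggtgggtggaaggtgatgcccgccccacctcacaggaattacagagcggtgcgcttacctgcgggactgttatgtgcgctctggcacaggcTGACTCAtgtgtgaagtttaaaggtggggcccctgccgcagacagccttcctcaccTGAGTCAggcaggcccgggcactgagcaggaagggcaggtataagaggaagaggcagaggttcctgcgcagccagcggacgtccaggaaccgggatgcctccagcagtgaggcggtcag
LAMB3: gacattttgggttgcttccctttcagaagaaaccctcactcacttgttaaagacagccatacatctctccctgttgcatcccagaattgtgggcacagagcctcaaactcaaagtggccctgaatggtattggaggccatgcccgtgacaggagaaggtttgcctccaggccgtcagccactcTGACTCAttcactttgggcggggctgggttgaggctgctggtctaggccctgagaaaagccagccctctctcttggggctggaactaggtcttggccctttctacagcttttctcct
LAMA3 holds TGACTCA 2 times and LAMB3 1 time, counting both strands. Of all 35116 windows 4.95% hold it, and the matches are descriptions of the sequence, not binding sites.

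LAMA5, LAMB1, LAMB2 and LAMC1 encode the chains of the main laminins of mature epithelial and vascular basement membranes. LAMB2 (chromosome 3, 49121114 to 49133050) fell most of all 19 genes. It was at 43.9, 36.0, 27.7 and 45.6 in M-BM and at 34.8, 28.3, 24.0 and 34.6 in Lat, against 123, 124, 169 and 162 in S-BM. The gap between the groups was wide, with no M-BM or Lat library near the lowest of S-BM. LAMB2 fell 3.73-fold in M-BM (log2 fold change −1.90, SE 0.17, adjusted p = 2.76e-06) and 4.63-fold in Lat (−2.21, SE 0.17, adjusted p = 4.6e-07). LAMB1 was at 130.0 ± 15.7 in M-BM and 109 ± 17.2 in Lat, against 166 ± 6.41 in S-BM (SD, n = 4). It fell 1.28-fold in M-BM (adjusted p = 0.022) and 1.53-fold in Lat (adjusted p = 0.00062), and the M-BM call was lost without M-BM 3 (adjusted p = 0.0778), without S-BM 3 and S-BM 4 (log2 fold change −0.34, adjusted p = 0.0956) and with the closest library pairs averaged (−0.35, adjusted p = 0.0533). LAMA5 was at 59.3 ± 19.2 in M-BM and 56.5 ± 12.9 in Lat, against 106 ± 28.9 in S-BM. It fell 1.80-fold in M-BM (adjusted p = 0.00966) and 1.86-fold in Lat (adjusted p = 0.00609); without S-BM 3 and S-BM 4, where it was highest, neither call held (log2 fold changes −0.53 and −0.57, adjusted p = 0.131 and 0.0962). LAMC1, the γ chain that most laminins share, went the other way by a small amount. Its mean was 436 ± 43.7 in M-BM and 501 ± 17.5 in Lat, against 361 ± 22.1 in S-BM, a rise of 1.20-fold in M-BM (adjusted p = 0.0192; 0.061 without M-BM 1) and of 1.39-fold in Lat (adjusted p = 0.000383).

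**Figure D4:**
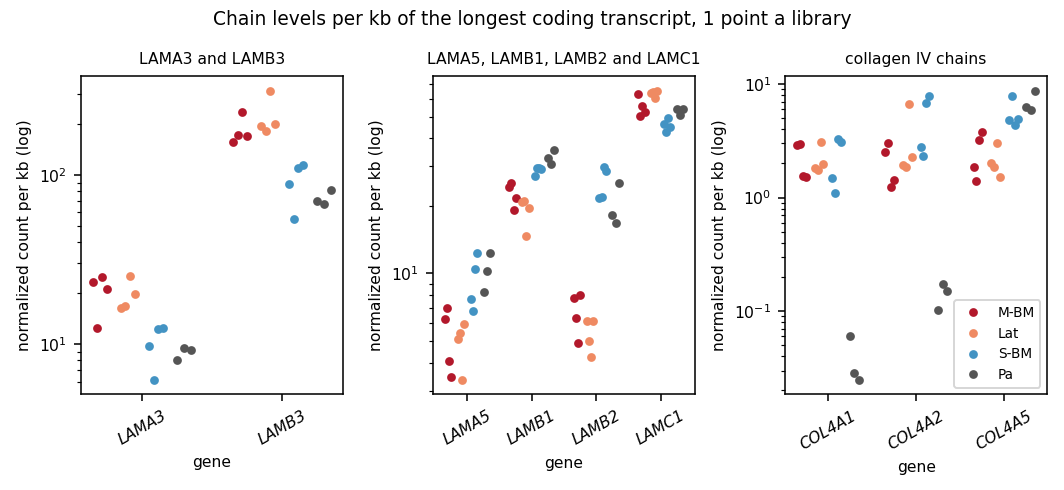
Normalized count per kb of the longest coding transcript on a log axis (y axis) for LAMA3 and LAMB3 (left), the chains of the main mature laminins (middle) and type IV collagen (right), with 1 point per library coloured by group. LAMB2 is lower in M-BM and Lat than in S-BM and Pa, LAMA3 and LAMB3 are higher in most M-BM and Lat libraries, and COL4A1 and COL4A2 lie far lower in Pa than in all other groups.

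At low levels, LAMA2, the α chain of laminins in muscle and nerve, stood at 4.73, 3.03, 3.45 and 2.81 in M-BM and at 4.37, 5.32, 4.87 and 4.67 in Lat, against 1.20, 1.27, 1.35 and 0.931 in S-BM. The S-BM libraries were the lowest 4 of the 12. In the wider fit LAMA2 rose 2.04-fold in M-BM (log2 fold change 1.03, SE 0.15, adjusted p = 8.56e-05) and 2.66-fold in Lat (1.41, SE 0.15, adjusted p = 4.27e-06). LAMC3, a γ chain found in brain vessels and other tissues, stood at 1.24 ± 0.294 in M-BM and 1.08 ± 0.277 in Lat, against 2.63 ± 1.42 in S-BM (SD, n = 4). It passed in Lat (log2 fold change −0.72, adjusted p = 0.0228) but not without Lat 3 (adjusted p = 0.0598), without S-BM 3 (0.0747) or without S-BM 4 (0.079). In M-BM it did not pass with limma (−0.61, adjusted p = 0.0522) but passed with edgeR (adjusted p = 0.0321). In that fit, among the 13 genes at low levels, 5 passed in M-BM against S-BM and 6 in Lat against S-BM, beside 50.9% and 57.8% of all 13019 genes. The 13019 include the 9646 genes of the first fit, which stood at higher values. Shares of the 13019 are therefore not matched in level to these 13 genes.

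Collagen XII, a fibril-associated collagen that lies on the surface of collagen I fibrils, was the most abundant collagen per length in every group. COL12A1 stood at 268, 166, 170.3 and 254 in M-BM and at 241, 263, 157 and 171 in Lat, against 427, 679, 616 and 613 in S-BM. Every M-BM and Lat library lay below S-BM 1, the lowest of that group. COL12A1 fell 2.74-fold in M-BM (log2 fold change −1.45, SE 0.21, adjusted p = 7.01e-05) and 2.82-fold in Lat (−1.50, SE 0.21, adjusted p = 3.53e-05). COL5A1, a fibrillar collagen that sets the width of collagen I fibrils, stood at 127, 58.0, 33.0 and 53.8 in M-BM and at 54.7, 56.5, 60.4 and 79.6 in Lat, against 142, 136, 151 and 165 in S-BM. M-BM 1 came close to the S-BM libraries but did not reach them. COL5A1 fell 2.43-fold in M-BM (log2 fold change −1.28, SE 0.28, adjusted p = 0.00196) and 2.36-fold in Lat (−1.24, SE 0.28, adjusted p = 0.00192). COL5A2, its usual partner chain, was at 2.17 ± 0.464 in M-BM, 2.49 ± 1.31 in Lat and 2.12 ± 0.506 in S-BM and passed in neither comparison (adjusted p = 0.926 in M-BM and 0.679 in Lat).

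COL1A1, the main chain of collagen I, was low in these epithelial cells, and COL1A2, which encodes the other chain, was at most 0.139. COL1A1 stood at 8.61 ± 2.23 in M-BM and 10.2 ± 7.03 in Lat, against 4.71 ± 1.33 in S-BM (SD, n = 4). The log2 fold change in Lat was 0.83 (SE 0.31) and passed with adjusted p = 0.036, where Lat 3 held 20.7 against 5.93 to 7.11 in the others, and did not pass without Lat 3 (0.46, adjusted p = 0.0912), without S-BM 1 (0.0989), without S-BM 2 (0.0695) or without S-BM 3 (0.0509). In M-BM it did not pass (0.75, adjusted p = 0.0618), but it passed with DESeq2 (adjusted p = 0.045), quantile scaling (0.0374), only the 2 groups in the fit (0.0183) or the replicate block (0.048), and without M-BM 4 (0.0343), Lat 3 (0.00749) or S-BM 4 (0.0485). COL27A1, a fibrillar collagen of cartilage, stood at 2.51, 2.12, 2.04 and 1.62 in M-BM and at 2.26, 1.88, 4.76 and 1.95 in Lat, against 0.399, 0.405, 0.825 and 1.05 in S-BM. Neither M-BM nor Lat overlapped S-BM, and COL27A1 rose in M-BM (log2 fold change 0.89, SE 0.22, adjusted p = 0.00404) and in Lat (1.11, SE 0.22, adjusted p = 0.000691). COL11A2 stayed near 1 everywhere, between 0.739 and 1.51 in the 12 libraries, and passed in neither comparison.

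COL16A1, another fibril-associated collagen, stood at 2.86, 5.20, 12.4 and 6.52 in M-BM, at 2.57, 1.99, 5.13 and 2.37 in Lat and at 1.65, 1.16, 2.32 and 3.38 in S-BM. M-BM 3 was the highest, and the groups overlapped. COL16A1 rose 2.32-fold in M-BM (log2 fold change 1.21, SE 0.34, adjusted p = 0.00885) and did not pass in Lat (0.35, adjusted p = 0.393). COL6A1, a chain of the beaded filaments of collagen VI, stood at 6.94, 5.11, 3.70 and 2.14 in M-BM and at 3.75, 4.26, 7.14 and 5.58 in Lat, against 1.88, 3.44, 0.375 and 0.524 in S-BM. S-BM 3 and S-BM 4 were the lowest, and S-BM 2 lay above M-BM 4. COL6A1 rose 2.27-fold in M-BM (log2 fold change 1.18, SE 0.36, adjusted p = 0.0138) and 2.66-fold in Lat (1.41, SE 0.36, adjusted p = 0.00416), and without S-BM 3 and S-BM 4 neither call held (0.53 with adjusted p = 0.22, and 0.76 with adjusted p = 0.0792). Its partners COL6A2 and COL6A3 reached at most 1.29 and 0.767.

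Collagens XVII, VII and XIII belong to the attachment of epithelia. COL17A1, a transmembrane collagen of hemidesmosomes, stood at 13.98, 32.4, 45.0 and 34.4 in M-BM and at 31.2, 29.3, 83.9 and 41.4 in Lat, against 12.5, 10.1, 29.8 and 30.1 in S-BM. S-BM 3 and S-BM 4 reached into the range of the other groups. COL17A1 rose 2.23-fold in Lat (1.15 on the log2 scale, SE 0.42, adjusted p = 0.0284), a call that ended without Lat 3 (0.83, adjusted p = 0.0961), Lat 4 (0.0504), S-BM 1 (0.082) or S-BM 2 (0.0894). It did not pass in M-BM (0.63, adjusted p = 0.224), where leaving out both S-BM 3 and S-BM 4 made it pass (1.30, adjusted p = 0.028). COL7A1, the collagen of anchoring fibrils, was at 5.12 ± 1.28 in M-BM, 5.49 ± 1.70 in Lat and 5.33 ± 2.22 in S-BM, and COL13A1, a transmembrane collagen, at 1.71 ± 0.913, 1.55 ± 0.803 and 2.20 ± 0.761 in the same groups (SD, n = 4). Neither passed in any comparison.

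Perlecan and agrin, heparan sulfate proteoglycans of basement membranes, fell in both comparisons. HSPG2, which encodes perlecan (chromosome 1, 21822244 to 21937310), stood at 3.10, 5.96, 1.85 and 3.76 in M-BM and at 0.719, 0.720, 1.29 and 0.697 in Lat, against 10.4, 5.57, 22.6 and 23.4 in S-BM. Lat was below every other library, and M-BM 2 alone of the M-BM libraries overlapped S-BM. In the wider fit HSPG2 fell 3.25-fold in M-BM (log2 fold change −1.70, SE 0.37, adjusted p = 0.0018) and 7.82-fold in Lat (−2.97, SE 0.37, adjusted p = 1.67e-05). Without S-BM 3 and S-BM 4, where it was highest, these values were −0.97 (adjusted p = 0.0281) and −2.23 (adjusted p = 0.000165). AGRN, whose protein agrin clusters acetylcholine receptors at the nerve-muscle junction and is also found around brain vessels, was at 77.2, 58.6, 64.1 and 53.8 in M-BM and at 51.2, 48.2, 61.3 and 54.9 in Lat, against 101, 63.1, 127 and 144 in S-BM. S-BM 2 was low enough to meet the M-BM libraries. AGRN fell 1.65-fold in M-BM (log2 fold change −0.72, SE 0.20, adjusted p = 0.00906) and 1.92-fold in Lat (−0.94, SE 0.20, adjusted p = 0.00124), and leaving out both S-BM 3 and S-BM 4 ended the M-BM call (−0.34, adjusted p = 0.152). NID1, the nidogen that links laminin to type IV collagen, was between 0.285 and 0.633 in M-BM, 0.279 and 0.609 in Lat and 0.0570 and 1.63 in S-BM.

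M-BM against Lat asks what separates metachronous metastatic cells from latent or residual cells. Of the 19 genes, SPARC was called higher and COL15A1 lower in M-BM, beside 0.145% of all 9646 genes (14 genes) in that comparison, of which 0.0933% were higher and 0.0518% lower. They were also the 2 of the 19 whose M-BM and Lat libraries did not overlap, beside 7.3% of all genes. As both reached the filter mainly through the group where they were high, these counts support nothing. Without SPARC and COL15A1, 0 of 17 genes were called. Of the 19, edgeR called 0 and DESeq2 called 1, beside 12 and 141 of all 9646 genes. An unadjusted limma p under 0.05 was found for 4 of the 19. The share of all genes under that limit was not counted, so nothing is read from this number. COL15A1 fell 2.80-fold (log2 fold change −1.49, SE 0.25, adjusted p = 0.0343; edgeR adjusted p = 0.0538), and the 4 M-BM libraries lay below the 4 Lat libraries. Both calls depended on the libraries and the method. That of SPARC was lost without M-BM 2 (adjusted p = 0.0799), M-BM 3 (0.0752), M-BM 4 (0.06), Lat 1 (0.115), Lat 2 (0.117) or Lat 4 (0.0721). That of COL15A1 was lost without M-BM 1 (0.0593), M-BM 2 (0.0703), M-BM 3 (0.0752), M-BM 4 (0.116), Lat 1 (0.122), Lat 2 (0.117) or Lat 3 (0.0665). FN1 and THBS1 had log2 fold changes of −0.71 (adjusted p = 0.379) and −0.72 (adjusted p = 0.487). Of the 13 genes of the wider fit 0 passed with limma, beside 0.207% of all 13019 genes, and 0 with edgeR. DESeq2 called 1, HSPG2 (log2 fold change 2.08, adjusted p = 0.00269), and 4 had an unadjusted limma p under 0.05. The shares of all 13019 genes with edgeR, with DESeq2 or under that limit were not counted. HSPG2 and COL4A4 were the 2 of these 13 whose M-BM and Lat libraries did not overlap, beside 7.08% of all 13019 genes. COL4A4 entered the wider fit through Lat 1, Lat 2, Lat 4 and S-BM 2, since no M-BM library held it at a value of 1. Its separation of Lat from M-BM was thus in part built into its selection and supports nothing. The M-BM and Lat libraries of the remaining 17 genes of the first fit overlapped, and their log2 fold changes lay between −0.72 and 0.40.

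Levels against parental cells were compared without a test, because Pa was deposited in a table of its own. How that table was made cannot be told apart from a difference between Pa and the other groups. The Pa values were first scaled by 1.0171, the median ratio to the other table over 9242 genes, and a gene was counted when all libraries of a group lay at least 2-fold beyond all Pa libraries on the scale of value + 1. In M-BM, 8 of the 33 genes were above Pa in this way, beside 4.18% of 13156 genes, and 2 were below, beside 6.23%. In Lat, 9 were above (5.53% of all genes) and 3 below (9.02%). In S-BM, 4 were above, beside 0.38% of all genes, and 0 were below (1.09%). These 4 were COL4A1, COL4A2, THBS1 and FN1. At 4-fold or more, 6 of the 33 genes lay above Pa in M-BM (0.661% of all genes) and 5 in Lat (1.01%). In S-BM, 9 of 13156 genes in the tables (0.0684%) did so, and COL4A1 and COL4A2 were 2 of them. COL4A1, SPARC, LAMA2 and COL15A1, counted above Pa in M-BM, had no Pa library at a value of 1. They were reported through the other groups alone, so part of their difference from Pa was built into their selection. The same holds for COL4A1, LAMA2 and COL15A1 in Lat and for COL4A1 in S-BM. The counts above Pa are therefore descriptions that support nothing.

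LAMA3 was at 85.9, 101 and 97.9 and LAMB3 at 301, 291 and 349 in Pa, and LAMC1 at 426, 399 and 426, within 0.24 of every other group on the log2(value + 1) scale. COL4A1 stood at 0.397, 0.187 and 0.164 in Pa (12 reads) and COL4A2 at 0.662, 1.12 and 0.983 (46 reads). COL4A1 was 3.60, 3.57 and 3.53 above Pa on the log2(value + 1) scale in M-BM, Lat and S-BM. COL4A2 was 2.81, 3.28 and 3.92 above it, so both genes stood apart from Pa. COL4A5 moved against them, at 41.0, 38.0 and 56.8 in Pa, with differences of −1.50 in M-BM, −1.71 in Lat and −0.37 in S-BM.

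FN1 was at 73.9, 98.8 and 121 and THBS1 at 98.4, 101 and 96.3 in Pa. Their differences from Pa were 3.87 and 3.80 in M-BM, 4.58 and 4.52 in Lat and 2.04 and 2.62 in S-BM on the log2(value + 1) scale, a stepwise order in which Pa was lowest. SPARC (0.463, 0.187 and 0.655) and TNC (238, 201 and 319) in Pa were close to S-BM, with S-BM differences of 0.04 and 0.27, and COL15A1 in Pa was carried by 4 reads over 3 libraries and was 0 in Pa 3. Of the genes that fell in M-BM and Lat against S-BM, LAMB2 (103, 95.1 and 143), COL12A1 (583, 571 and 664) and HSPG2 (13.1, 11.2 and 15.6) were in Pa near their S-BM levels, with S-BM differences of 0.33, −0.10 and −0.00. Below Pa in M-BM were LAMB2 and COL12A1, and in Lat these and HSPG2. Without Lat 3, AGRN and COL4A5 joined them, which made 5.

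**Figure D5:**
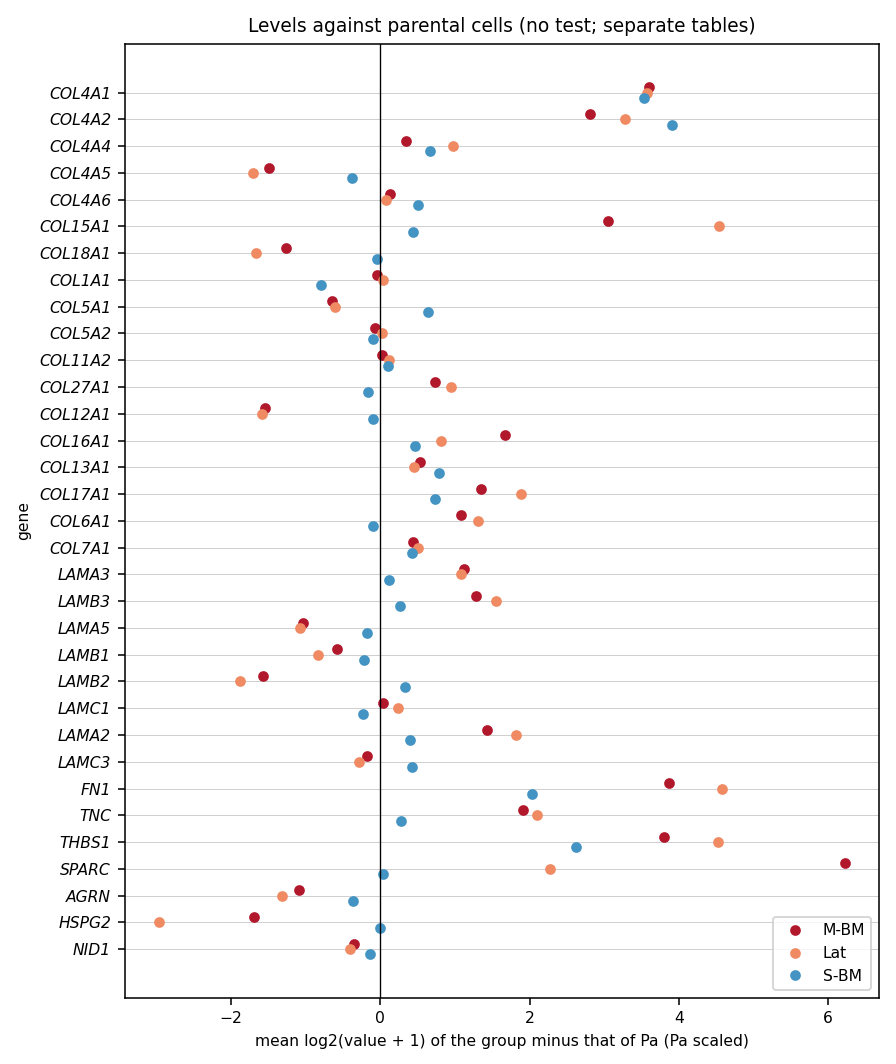
Mean log2(value + 1) of M-BM, Lat and S-BM minus that of Pa, with Pa scaled (x axis), for the 33 genes (y axis); 1 point per group and no test. All 3 points lie far to the right for COL4A1, COL4A2, FN1 and THBS1, only the M-BM and Lat points for SPARC, COL15A1 and TNC, and the M-BM and Lat points lie to the left of S-BM for LAMB2, COL12A1, HSPG2, COL18A1 and COL4A5.

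Genes that modify, export, cross-link or bind these proteins were read from 5 lists, tested in the same fit and counted without a test of the list. For collagen modification and folding, 15 of the 19 genes found in the tables were tested. In M-BM against S-BM 3 rose and 4 fell, and in Lat against S-BM 2 rose and 5 fell. SERPINH1, the collagen chaperone HSP47, was at 101 ± 26.6 in M-BM and 104 ± 9.95 in Lat, against 54.1 ± 12.8 in S-BM (log2 fold change 0.88 in M-BM, adjusted p = 0.00145, and 0.96 in Lat, adjusted p = 0.000607). CRTAP, a subunit of the prolyl 3-hydroxylase complex, fell by 1.03 in M-BM (adjusted p = 2.99e-05) and by 1.22 in Lat (adjusted p = 4.09e-06) on the log2 scale. P4HA1, a prolyl 4-hydroxylase subunit, fell by 0.88 (adjusted p = 0.000125) in M-BM and by 1.04 (adjusted p = 2.03e-05) in Lat. LEPRE1, the hydroxylase of that complex, fell too (−0.37 in M-BM and −0.65 in Lat). TMEM38B rose (0.53 in M-BM and 0.74 in Lat), and LEPREL4 rose in M-BM (0.56, adjusted p = 0.0287) and missed the threshold in Lat (0.47, adjusted p = 0.0545).

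For export and propeptide cleavage, 12 of 21 genes were tested, 3 rose and 7 fell in M-BM, and 3 rose and 8 fell in Lat. Genes of the COPII coat, which carries procollagen out of the endoplasmic reticulum, were among those that fell, SEC31A from the outer coat most (log2 fold change −0.83 in M-BM, adjusted p = 2.19e-05, and −1.03 in Lat, adjusted p = 2.11e-06). SEC23A (−0.61 in M-BM and −0.67 in Lat), SEC24D (−0.52 and −0.72) and SEC13 (−0.43 and −0.70) of the same coat fell too. KLHL12, the ubiquitin ligase adaptor that enlarges these carriers, rose (0.86 in M-BM, adjusted p = 0.000127, and 0.99 in Lat, adjusted p = 2.56e-05). The propeptide-cleaving protease FURIN rose by log2 fold changes of 0.40 in M-BM and 0.53 in Lat, and CTAGE5 by 0.39 and 0.28. For cross-linking, 6 of 11 genes were tested, in a list that also holds the heparan sulfate enzymes GLCE, SULF1 and SULF2. In each comparison 1 gene was higher and 3 were lower, with SULF2 among the 3. PXDN, the peroxidasin that cross-links type IV collagen, stood at 17.9 ± 9.08 in M-BM and 15.6 ± 17.2 in Lat, against 105 ± 26.8 in S-BM (log2 fold change −2.58, adjusted p = 0.000685, and −3.10, adjusted p = 0.00012). The transglutaminase TGM2, which cross-links fibronectin, fell (−1.66 in M-BM, adjusted p = 0.000719, and −1.74 in Lat, adjusted p = 0.000373), the sulfatase SULF2 fell (−0.59 in M-BM, adjusted p = 0.0319, and −0.75 in Lat, adjusted p = 0.00787), and the lysyl oxidase LOXL2 rose (0.90 in M-BM, adjusted p = 0.00533, and 0.88 in Lat, adjusted p = 0.00514).

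Of the receptors, 20 of 32 were tested; 6 rose and 9 fell in M-BM, and 4 rose and 10 fell in Lat. The integrin chains ITGA6, ITGA2 and ITGA5, which belong to laminin, collagen and fibronectin receptors, rose in M-BM by log2 fold changes of 1.35, 0.84 and 0.75 and in Lat by 1.30, 0.84 and 0.82 (adjusted p up to 0.00136). DDR1, a receptor kinase for collagen, and DAG1, dystroglycan, which binds laminin, agrin and perlecan, fell in M-BM (−1.08 and −0.95) and in Lat (−1.35 and −1.18), with adjusted p up to 4.07e-05. The glypican GPC4, a cell surface heparan sulfate proteoglycan, fell (log2 fold change −1.41 in M-BM, adjusted p = 0.00213, and −1.42 in Lat, adjusted p = 0.00156). Of 91 other matrix glycoproteins and proteoglycans, 23 were tested; 3 rose and 9 fell in M-BM, and 4 rose and 9 fell in Lat. SPOCK1, a proteoglycan of the SPARC family, rose by a log2 fold change of 1.53 in M-BM (adjusted p = 0.000397) and 1.88 in Lat (adjusted p = 5.62e-05), and the fibulin EFEMP1 fell (−1.51, adjusted p = 0.00133, and −2.57, adjusted p = 1.39e-05). Of the IGF-binding proteins in the list, IGFBP5 fell most (−3.78 in M-BM, adjusted p = 0.000581, and −3.05 in Lat, adjusted p = 0.0021), and IGFBP3 fell as well (−1.85, adjusted p = 0.000275, and −2.38, adjusted p = 2.42e-05). LGALS3BP rose in both (0.92, adjusted p = 0.000975, and 0.93, adjusted p = 0.000702) and CYR61 in Lat (0.96, adjusted p = 0.00234; 0.33 in M-BM, adjusted p = 0.24). The shares of all genes that rose and fell are those given above, and the median log2 fold changes of the 5 lists ran from −0.37 to 0.01 in M-BM and from −0.57 to −0.19 in Lat. In M-BM against Lat, limma and edgeR called 0 genes of each list, beside 14 and 12 of all 9646 genes. DESeq2 called 1, of the other glycoproteins and proteoglycans, beside 141 of all genes. The limma p without adjustment was under 0.05 for 1, 1, 0, 3 and 8 genes of the 5 lists in the order given. The share of all genes under that limit was not counted, so nothing is read from these numbers.

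The 28 genes by name that were not reported stayed at or below 1.54 in every library. They include COL3A1, at most 0.109, and COL1A2, typical of fibroblasts, LAMA4, at most 0.143, the α chain of vascular laminin, LAMA1, at most 0.633, and NID2, at most 0.103. Of those just outside the limit, COL6A2 averaged 0.924 in M-BM, 0.897 in Lat, 0.131 in S-BM and 0.0390 in Pa, and COL24A1 averaged 0.12 in M-BM, 0.102 in Lat, 0.320 in S-BM and 1.16 in Pa. These are levels, given without a test.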

How the data were processed

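Per the labels' protocols, total RNA was purified with RNeasy columns and libraries were made with the TruSeq RNA v2 kit, which does not mark strand, so genes that overlap on opposite strands cannot be told apart. Per the submitters' processing notes, Bowtie 0.12.2 and the genome GRCh38 were used; what counted the reads, with which annotation and scaling, is not given in the sources used here. As deposited, the signal values have the form of gene counts divided by 1 factor per library, since 100% came out as whole reads within 0.05 reads; they stand in 2 tables, 1 of them for Pa alone, which no source says were normalized together. The members and lists were chosen with earlier results of these data known. M-BM, Lat and S-BM (12 libraries) were fitted together in limma 3.58.1 (R 4.3.3) on log2(value + 1) with a mean trend and 9 residual degrees of freedom, for genes at 10 or more in at least 4 libraries, and adjusted over all of them; edgeR 4.0.16 and DESeq2 1.42.0 on recovered reads were alternatives, as were another pseudocount, other filters, other scalings and left-out libraries. Genes named in the text are all 33 reported members, and in each related list up to 3 called genes per direction with the largest absolute log2 fold changes in M-BM or Lat against S-BM. A gene that matches the rule is not reported here and is in no count of members. The main fit did not treat replicate numbers as pairs, and no label says whether they pair the samples. Excel-style dates stood in place of 27 gene names. Positions and promoters are from RefSeq (GRCh38.p14), which had promoter windows for 28 of the 33 genes; transcript lengths are those of the longest coding transcript.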

Additional observations from a re-analysis of the deposited data

Results flagged for a closer look

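In 14 of the 99 groups of 4 libraries formed by the 33 genes, 1 library stood so far from its group that the gap to the nearest other library, as a share of the range, exceeded Dixon's critical value for 4 samples. For independent normal values, chance alone gives this in about 1 of 20 groups. The 99 groups share the same libraries and some rest on few reads, so that rate may not hold here. Lat 3 accounts for 9 of the 14 and was the high library each time. It held FN1 at 4951 against 1795 to 1940.1 in Lat 1, Lat 2 and Lat 4, LAMB3 at 1356 against 777 to 858, COL4A2 at 43.5 against 12.2 to 14.6, and SPARC at 41.9 against 2.22 to 3.07. COL1A1 was at 20.7 against 5.93 to 7.11, COL5A2 at 4.45 against 1.72 to 1.90, COL27A1 at 4.76 against 1.88 to 2.26, COL13A1 at 2.74 against 1.05 to 1.28, and HSPG2 at 1.29 against 0.697 to 0.720. S-BM 2 stood apart 3 times, with SPARC high at 1.06 against 0.285 to 0.349, COL4A5 high at 51.2 against 28.3 to 31.8, and COL13A1 low at 1.06 against 2.56 to 2.62. COL4A6 was low in S-BM 1, at 2.28 against 4.05 to 4.20, and COL11A2 was low in Lat 1, at 0.822 against 1.19 to 1.26. COL11A2 was carried by 79 reads over the 4 Lat libraries, so counting error is part of its spread.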

How the results depend on the processing

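Log2 fold changes of single genes were recomputed where limma called the gene in a comparison, and for a few chosen uncalled genes. LAMC3 in M-BM against S-BM was not among them. Over the alternatives, 1172 of the recomputed values kept their direction and their side of the threshold, 50 lost the call, 18 gained it and 12 turned sign. All but 1 of these 12 were of COL4A1, whose change was near 0. COL4A1 in M-BM against S-BM was −0.0041 with edgeR and −0.014 with DESeq2, and −0.20 to 0.29 when single libraries were left out. In Lat against S-BM it was −0.052 with edgeR and −0.057 with DESeq2, and −0.23 to 0.26 without single libraries. COL4A2 in Lat against S-BM was 0.11 without S-BM 3 and S-BM 4. Without those libraries 5 of the 19 genes, not 8, fell in M-BM against S-BM. In M-BM against Lat the call of the gene that was higher (SPARC) was lost, leaving 0, with edgeR, with DESeq2, with only those 2 groups, without S-BM 3 and S-BM 4, with the closest library pairs averaged (an alternative added after the data were seen) and with no filter, and the count was 0 to 1 without single libraries. The call of the gene that was lower (COL15A1) left 0 with pseudocount 0.5, edgeR, the 2 groups alone, averaged pairs and no filter, and 0 to 1 without single libraries. Among the 13 genes of the wider fit, those that fell in Lat numbered 1 without S-BM 3 and S-BM 4 or with averaged pairs and 1 to 3 without single libraries, against 2 before. Those that fell in M-BM against S-BM numbered 3 with quantile scaling, 2 with edgeR or DESeq2 and 1 to 2 without single libraries, against 1 before, and DESeq2 called 1 higher in M-BM against Lat. Genes of Lat below Pa numbered 5 without Lat 3, against 3 with it. Over all 9646 genes, edgeR on the recovered reads called 5072 in M-BM against S-BM, 5748 in Lat against S-BM and 12 in M-BM against Lat, where limma called 5084, 5754 and 14 and DESeq2 called 5315, 5903 and 141. The causes of these changes were not tested.

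No label says whether the replicate numbers pair the samples, and correlations of residuals over so few pairs cannot decide it. Between same-numbered libraries they ran from −0.272 to 0.319 (12 pairs, 4 above 0.1). Between other libraries they ran from −0.305 to 0.322 (36 pairs, 7 above 0.1). With the replicate block, 9 genes rose and 8 fell in M-BM against S-BM, 9 and 8 in Lat against S-BM, and 1 and 1 in M-BM against Lat; in the wider fit the counts were 5 and 1, 4 and 3, and 0 and 0. The block added the calls of COL17A1 (0.63, adjusted p = 0.039, limma) and COL1A1 (0.75, adjusted p = 0.048) in M-BM against S-BM. Library depth limits the genes at a value near 1, for which the log2(value + 1) scale and the count tools give different sizes of change.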
